A study of Mus musculus with 2 samples.

Results

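The genes described here are the cytosolic ribosomal protein genes of the mouse, which encode the proteins of the small and large subunits of the ribosome. They were taken by symbol alone, as all genes named Rps or Rpl with a number (with an optional a, l, x or y and a digit) plus Rpsa, Rplp0, Rplp1 and Rplp2. The kinase genes named Rps6k and copies marked as pseudogenes were left out. This gave 82 of the 17238 genes in the deposited count table, of which 32 belong to the small subunit, 47 to the large subunit and 3 to its stalk. A total of 81 had at least 20 unique molecular identifiers (UMIs, 1 per captured transcript) over both libraries, and the exception, Rpl3l, had 1.

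The cells were IL7ra+ innate lymphoid cells (ILCs) sorted from the gut of fed C57BL/6 mice aged 8 weeks, and 3′ transcripts were sequenced with the 10x Chromium v2 kit. Small intestine and colon gave 1 library each, 2 in all, and each came from 8 pooled mice. There were 5490 small intestine cells with 15080081 UMIs, and 7549 colon cells and 22332691 UMIs, with medians of 2579 and 2600 UMIs per cell. With 1 library per tissue there was no replicate, so no test was possible, and every interval below is a 95% interval that covers counting error only. Tissue and library cannot be told apart. A total of 60 barcodes occurred in both libraries, where 56.2 would be shared by chance.

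The cytosolic ribosome makes the proteins of the cell from messenger RNA. Its protein genes are among the most expressed genes of resting lymphocytes, and their transcripts start with a run of pyrimidines, the 5′ terminal oligopyrimidine (TOP) motif, through which the kinase mTOR controls their translation. Vertebrates keep a second copy of several of these genes, such as Rps27l beside Rps27 and Rpl22l1 beside Rpl22. ILCs of the gut include ILC2, which need the transcription factor Gata3 at a high level, and ILC3, of which 1 kind carries the chemokine receptor Ccr6 and another the receptor Ncr1. Klrd1 is a receptor of natural killer cells and ILC1, and Cd3e is part of the T cell receptor complex.

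The bases around the annotated starts of these genes show a sequence feature that was more common among the members than among all genes. RefSeq promoter entries on GRCm38.p6, the build of the deposited files (mm10), matched 62 of the 82 members. Each line below gives 25 bases of the gene strand, 12 before and 13 after the annotated start, with the longest run of C and T that begins with C in capitals. All were chosen from members that have such a run. The first 4 have long runs, and the others are the paralog pair Rps27 and Rps27l, Rpl22l1 and the stalk gene Rplp2. The run shown for Rps27l lies wholly before its annotated start, and in a second Rps27l entry the longest such run had 4 bases.
Rpl7a, chr2:26910795-26910819, plus strand: CCCTCTTCTTTCTTTCTCCagcagc
Rpl35, chr2:39005119-39005143, minus strand: ccccgCCCTTTCCTCTTTCTCTCga
Rps10, chr17:27635232-27635256, minus strand: ccgcgcacgCCCCTTCCTTTCCagc
Rps18, chr17:33955653-33955677, minus strand: gtcacttccgCTCTCTCTTCCacag
Rps27, chr3:90213636-90213660, minus strand: tccgctttcgCTCCTTTCCggcggt
Rps27l, chr9:66946074-66946098, plus strand: CTCCTCCCCgccgcctctatcccgg
Rpl22l1, chr3:28805496-28805520, plus strand: cggcgcaagcccgttCTCTTCCCac
Rplp2, chr7:141447639-141447663, plus strand: gtcagcgtCTTCCTTTCgccgccgg
In the 50 bases from 20 before to 30 after the start, a run of at least 8 C or T stood on the gene strand of 34 of the 62 members (54.8%) and of 21.5% of 27025 genes. On the other strand of the same windows the shares were 9.68% and 24.7%. The letters CTTTC were on the gene strand of 22 members (35.5%) and of 7.66% of all genes, and on the other strand of 11.3% and 7.30%. The letters CTTTCC, which contain CTTTC, were found in 12 members (19.4%) against 2.83% of all genes, and CTCTTT in 11 (17.7%) against 2.15%. Genes of the mitochondrial ribosome had CTTTC on the gene strand in 4 of 69 (5.80%). These matches describe letters in a window and do not show where transcription began in these cells.

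The first question is how much of the messenger RNA of each library came from ribosomal protein genes. The members took 20.9% of the UMIs of the small intestine cells (3157116 UMIs, Clopper-Pearson interval 20.92 to 20.96%) and 28.5% of those of the colon cells (6369112 UMIs, 28.50 to 28.54%). The colon share was 1.36-fold higher, a log2 ratio of small intestine over colon of -0.45 (interval -0.45 to -0.44). In single cells the median share was 18.9% in the small intestine (10th to 90th percentile 14.9 to 30.5%, SD 6.01 over cells) and 28.4% in the colon (20.1 to 36.3%, SD 6.30). The ranges overlapped, with a tail of small intestine cells inside the colon range: 998 small intestine cells (18.2%) and 5205 colon cells (68.9%) had a share of at least 25%. The median cell held 479 member UMIs and 2036 other UMIs in the small intestine, and 750 and 1836 in the colon.

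Other properties of the libraries moved with this difference. The mitochondrial share was 2.50% in the small intestine against 2.67% in colon cells, and Malat1, a nuclear RNA, took 4.31% and 3.85%. Barcodes with 10 to 50 UMIs, which hold free RNA, had a member share of 22.7% in the small intestine library and 31.9% in the colon library, above the cells of each library. Free RNA was estimated, from the antibody genes Igkc, Igha and Jchain, to be 5.35% and 8.25% of the UMIs in cells. With it subtracted the log2 ratio was -0.44. Across the cells of 1 library, the member share had a Spearman correlation with UMIs per cell of 0.15 in each library (5490 and 7549 cells, which share a library and are not replicates). With the cells of a library cut into 4 equal parts by UMIs per cell, from shallow to deep, the share was 18.9, 19.7, 20.9 and 22.7% in small intestine and 26.4, 28.9, 29.3 and 28.7% in colon cells.

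The next question is whether the share differed with the markers of the ILC subsets. Cells were grouped by at least 1 UMI of a marker, so a cell can be in several groups, and a group is a range of cells rather than a cell type. In both libraries the order from lowest to highest was Ncr1+, Ccr6+, Klrd1+, Cd3e+ and Gata3+ cells. The lowest 2 changed places in the colon when cells were thinned to 1000 UMIs, when only cells positive for exactly 1 marker were used, and in cells of 2000 to 3000 UMIs. In cells of 2000 to 3000 UMIs of the small intestine, Cd3e+ cells were above Gata3+ cells.

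Ncr1+ cells had a share of 18.1% in the small intestine (1605 cells) and 24.1% in the colon (665 cells). Ccr6+ cells had 18.6% (541 cells) and 24.8% (357 cells). These 2 groups were the lowest in both libraries and lay close together, with counting intervals that did not overlap, of 18.05 to 18.12% and 18.58 to 18.70% in the small intestine. Klrd1+ cells had 21.6% (172 cells) and 26.2% (482 cells), and Cd3e+ cells 23.5% (429 cells) and 27.8% (1384 cells). Gata3+ cells were highest, with 25% (1643 cells, 24.98 to 25.05%) and 30.1% (4218 cells, 30.10 to 30.15%). Cells with no UMI of any of the 5 markers had 19.1% (1882 cells) and 27.3% (1615 cells). The highest and lowest marker groups were thus 6.93 percentage points apart in the small intestine against 6.00 in colon cells.

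**Figure D1:**
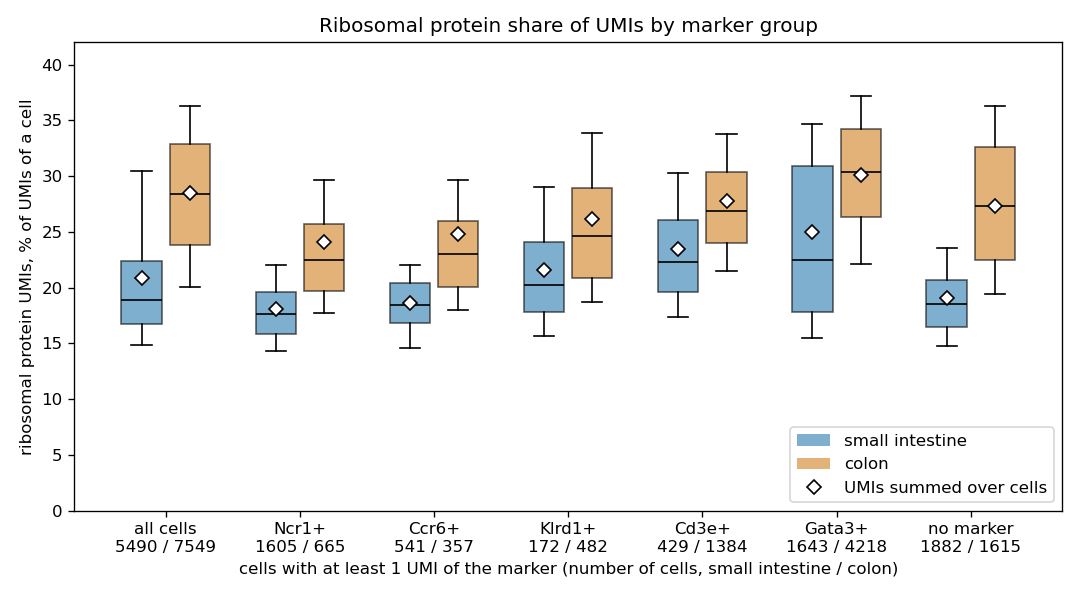
Ribosomal protein UMIs as a percent of the UMIs of a cell, for all cells and for each marker group of the small intestine (blue) and colon (orange) libraries; boxes span the 25th to 75th percentile over cells, whiskers the 10th to 90th, lines are medians and diamonds the share of the summed UMIs. Ncr1+ cells are lowest (18.1 and 24.1%) and Gata3+ cells highest (25 and 30.1%), and the colon diamond is above the small intestine diamond in every group.

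In each of the 5 groups the colon share was above the small intestine share, with log2 ratios of small intestine over colon of -0.42 in Ncr1+, -0.41 in Ccr6+, -0.28 in Klrd1+, -0.27 in Gata3+ and -0.24 in Cd3e+ cells. All 5 were nearer to 0 than the -0.45 of all cells, and cells with no marker UMI gave -0.52. The groups made up different parts of the 2 libraries: Gata3+ cells, the highest group, were 29.9% of the small intestine cells and 55.9% of the colon cells, and Ncr1+ cells, the lowest, 29.2% and 8.81%. With the small intestine cells weighted to the colon mix of marker patterns, the small intestine share was 24% and the log2 ratio -0.25, a comparison added after the data had been seen. Among the 25 patterns used, 13 had under 20 small intestine cells.

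Gata3+ cells had a higher share than the other cells in both libraries. Small intestine Gata3+ cells had a share 1.33-fold that of the other cells (25 against 18.9%, log2 ratio 0.41), and colon Gata3+ cells 1.16-fold (30.1 against 26.1%, 0.21). The share followed the number of Gata3 UMIs in the small intestine: it was 18.9% in cells with 0, 20.5% with 1, 26.4% with 2 and 30.2% with 3 or more (508 cells). In the colon the same steps gave 26.1, 29.4, 30.9 and 30.3% (1751 cells in the last). Cells with 3 or more Gata3 UMIs thus had nearly the same share in both libraries, while cells with none were apart. The deeper Gata3 strata also had more UMIs per cell: the medians were 2463 with 0 Gata3 UMIs and 3237 with 3 or more in the small intestine, and 2402 and 2984 in the colon.

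The single-cell values of the small intestine Gata3+ group were spread widely, from 15.5% at the 10th to 34.7% at the 90th percentile (SD 7.55 over cells). Of these cells 44.9% had a share of at least 25%, against 3.74% of Ncr1+ and 2.03% of Ccr6+ cells. Of the small intestine Gata3+ cells, 22.6% also held an Ncr1 UMI and 7.18% a Ccr6 UMI. In cells positive for Gata3 and none of the other 4 markers the share was 27.5% in the small intestine against 30.7% in colon cells, a log2 ratio of -0.16. At 2 or more Gata3 UMIs it was 28.8 and 30.5%, a ratio of -0.08. For the other markers these definitions gave -0.38 to -0.21. In cells of 2000 to 3000 UMIs the Gata3+ ratio was -0.42, so the distance between the tissues in Gata3+ cells depended on which cells were taken. This was not particular to Gata3+ cells. The Ccr6+ ratio of -0.41 was -0.25 in cells positive for exactly 1 marker and -0.22 in cells of 2000 to 3000 UMIs. Colon Ccr6+ cells were deep, with a median of 3443 UMIs against 2600 in all colon cells, and 50.1% of them carried another marker.

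**Figure D2:**
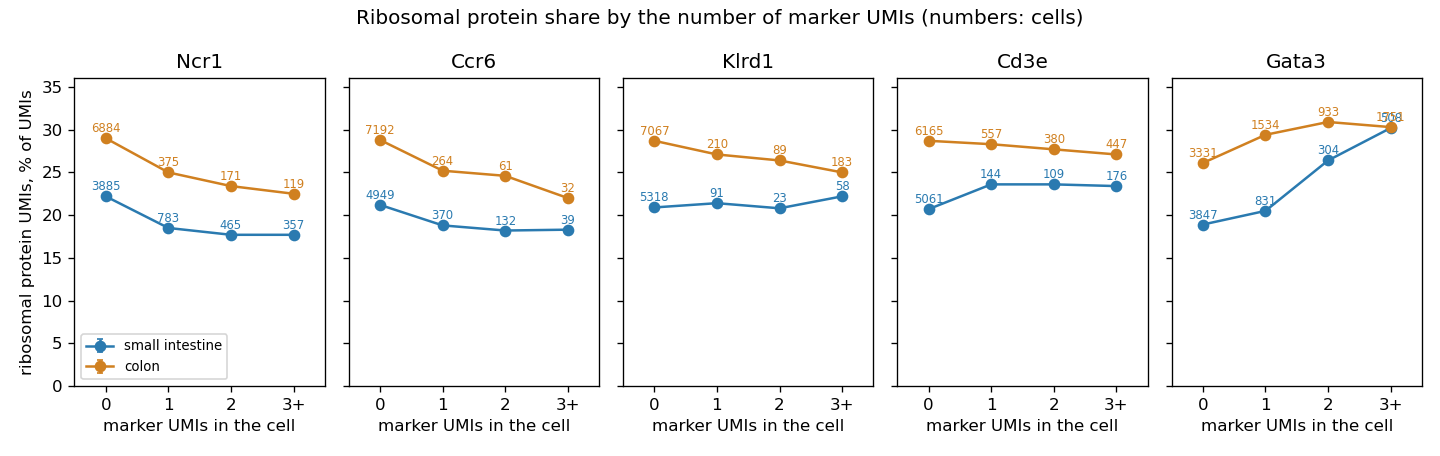
Ribosomal protein UMIs as a percent of summed UMIs (vertical axis) in cells with 0, 1, 2 or at least 3 UMIs of each marker, for small intestine (blue) and colon (orange); numbers are cells and bars, mostly hidden by the points, the counting interval. For Gata3 the small intestine line climbs from 18.9% to 30.2% and meets the colon line, and for Ncr1 both lines go down.

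The share in Ncr1+ cells was 17.7% at 3 or more Ncr1 UMIs in the small intestine against 22.5% in colon cells, and cells with no Ncr1 UMI had 22.2 and 29.0%. Ccr6 gave the same order, with 18.3 and 22.0% at 3 or more UMIs against 21.2 and 28.8% at none. Klrd1 and Cd3e went opposite ways in the 2 libraries. Cd3e+ cells were above the other cells in the small intestine (23.5 against 20.7%, log2 ratio 0.18) and below them in the colon (27.8 against 28.7%, -0.05). Klrd1+ cells had a log2 ratio over the other cells of 0.05 in the small intestine and -0.13 in colon cells (26.2 against 28.7%). The cells they were set against differ in kind, as the tissue makeup above shows. Of Klrd1+ cells, 82.0% in the small intestine against 75.1% in colon cells carried a further marker, most often Ncr1 (52.3 and 45%).

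The labels were checked against marker genes. Il7r, the receptor chain used in the sort, was at 874 CPM in the small intestine against 496 in colon cells, where CPM is the UMIs of a gene per 1000000 UMIs of the cells. Il22, the cytokine of ILC3, was at 7430 and 6851 CPM in Ccr6+ cells and at 3939 and 2835 in Ncr1+ cells. Il5, a cytokine of ILC2, was at 58.4 and 234 CPM in Gata3+ cells, and Il22 was at 2454 and 1044 CPM in the same cells. Summed ILC2 markers (8 genes) were at 3360 and 3876 CPM in Gata3+ cells and summed ILC3 markers (7 genes) at 2853 and 1183. Gata3, which selected these cells, is in the ILC2 list and gave 785 and 858 CPM of that sum. The ILC2 sum was also 2002 and 2297 CPM in Ccr6+ cells, and 2275 and 3093 in all cells. Gata3+ cells thus carried markers of both lists, which was not particular to them. Other cells were present as well: summed T cell markers (8 genes) were at 1792 and 2124 CPM in all cells and at 6605 and 5044 in Cd3e+ cells. Of the sums in Cd3e+ cells, Cd3e, which selected them, gave 946 and 712 CPM. Summed B and plasma cell markers (5 genes) were at 7188 CPM in the small intestine against 2454 in colon cells. This list holds the antibody genes Igkc, Igha and Jchain, from which free RNA was estimated. Cd79a of the same list was at 3.65 and 1.70 CPM, and the part of free RNA in the sum was not tested. With Cd3e+ cells left out, also chosen after the data had been seen, the log2 ratio of the member share was -0.47.

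The tissue difference was next followed gene by gene. Levels are CPM of 3′ tags, 1 per transcript, so they were not divided by length. Of the 81 members with at least 20 UMIs, 78 were lower in the small intestine, with a median log2 ratio of small intestine over colon of -0.44, while the median over all genes tested was 0.20. The middle 50% of the members lay between -0.52 and -0.37. At least 1.5-fold higher in the colon were 8 members, and 9.25% of 11962 genes were, so 8 of 81 was near the background. None was past 1.5-fold on the small intestine side, against 20.8% of genes. At a limit of 1.2-fold the counts were 72 members higher in the colon (17.0% of genes) and 2 in the small intestine (44.3% of genes), and at 2-fold they were 0 (5.42% of genes) and 0 (8.92%). The members thus stood apart by a small shift that nearly all of them had, not by large changes. The median of all genes was itself above 0. With a median-ratio size factor in place of total UMIs the member median was -0.65, and scaled to the UMIs of all other genes -0.59, with 57 and 45 members at least 1.5-fold higher in the colon.

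The 10 members with the most UMIs gave 24.4% of the member UMIs in the small intestine against 24.2% in colon cells. Rps27, a zinc-binding protein of the small subunit, had the highest level, 7803 CPM in the small intestine against 9126 in colon cells (log2 ratio -0.23). Rpl13 followed with 5820 and 8111 CPM (-0.48). Rps29, a small zinc-binding protein of the small subunit, had 5801 and 7168 CPM (-0.31), and Rpl37a, a zinc-binding protein of the large subunit, 5155 and 6934 (-0.43). Rplp1, an acidic protein of the stalk that binds elongation factors, had 4059 and 7055 CPM. Rps14 had 4806 and 6487 CPM (-0.43), Rpl41, the smallest ribosomal protein, 4863 and 6084 (-0.32), and Rps18 4233 and 5763 (-0.44). Rps19, which is mutated in Diamond-Blackfan anaemia, had 3617 and 5648 CPM. All 10 were higher in the colon. A total of 78 of the 82 members were at or above 900 CPM in each library, and the others were Rps27l, Rpl7l1, Rpl39l and Rpl3l.

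Small subunit genes had a median log2 ratio of -0.48 (32 genes), large subunit genes -0.41 (46 genes with at least 20 UMIs) and the 3 stalk genes -0.58. The small subunit took 43.6% of the member UMIs in the small intestine against 43.9% in colon cells. The balance of the subunits was thus nearly the same in both libraries, and the stalk took 5.07 and 5.85%.

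The largest tissue ratio was that of Rplp1 (chromosome 9, 61913284 to 61914542, minus strand), with a log2 ratio of -0.80 (-0.81 to -0.78), a 1.74-fold higher level in the colon. Its partners Rplp2, at 3124 and 4488 CPM, and Rplp0, the base of the stalk, at 3441 and 5132 CPM, had -0.52 and -0.58. Rpl12, which sits at the base of the stalk, was at 1123 and 1794 CPM (-0.68). Small subunit genes at this end were Rps19 (-0.64) and Rps4x, the X-linked copy of Rps4, at 2833 and 4369 CPM (-0.62). Further members past 1.5-fold, named after their values were seen, were Rps10 (-0.61), Rps12 (-0.60) and Rpsa (-0.59).

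At the other end, 3 members were higher in the small intestine. Rpl39l was at 4.51 and 3.22 CPM (log2 ratio 0.48, interval -0.02 to 0.98, 68 and 72 UMIs), so its interval reached 0. Rps27l was at 134 and 108 CPM (0.31, 0.22 to 0.39), and Rpl7l1, a gene similar to Rpl7, at 45.4 and 39.1 CPM (0.22, 0.07 to 0.36). Next were Rpl27 at 1731 and 1767 CPM (-0.03) and Rpl13a, a protein that can leave the ribosome and repress translation of inflammatory transcripts, at 1200 and 1288 CPM (-0.10). All 3 members above 0 were second copies of another member. The median over all genes was itself 0.20, so these 3 stood out from the family more than from other genes. With a median-ratio size factor they were at 0.28 (Rpl39l), 0.10 (Rps27l) and 0.01 (Rpl7l1). The other such copy with at least 20 UMIs, Rpl22l1, was at 997 and 1213 CPM (-0.28). Without these 4 genes, 77 of 77 members were below 0, from -0.80 to -0.03.

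**Figure D3:**
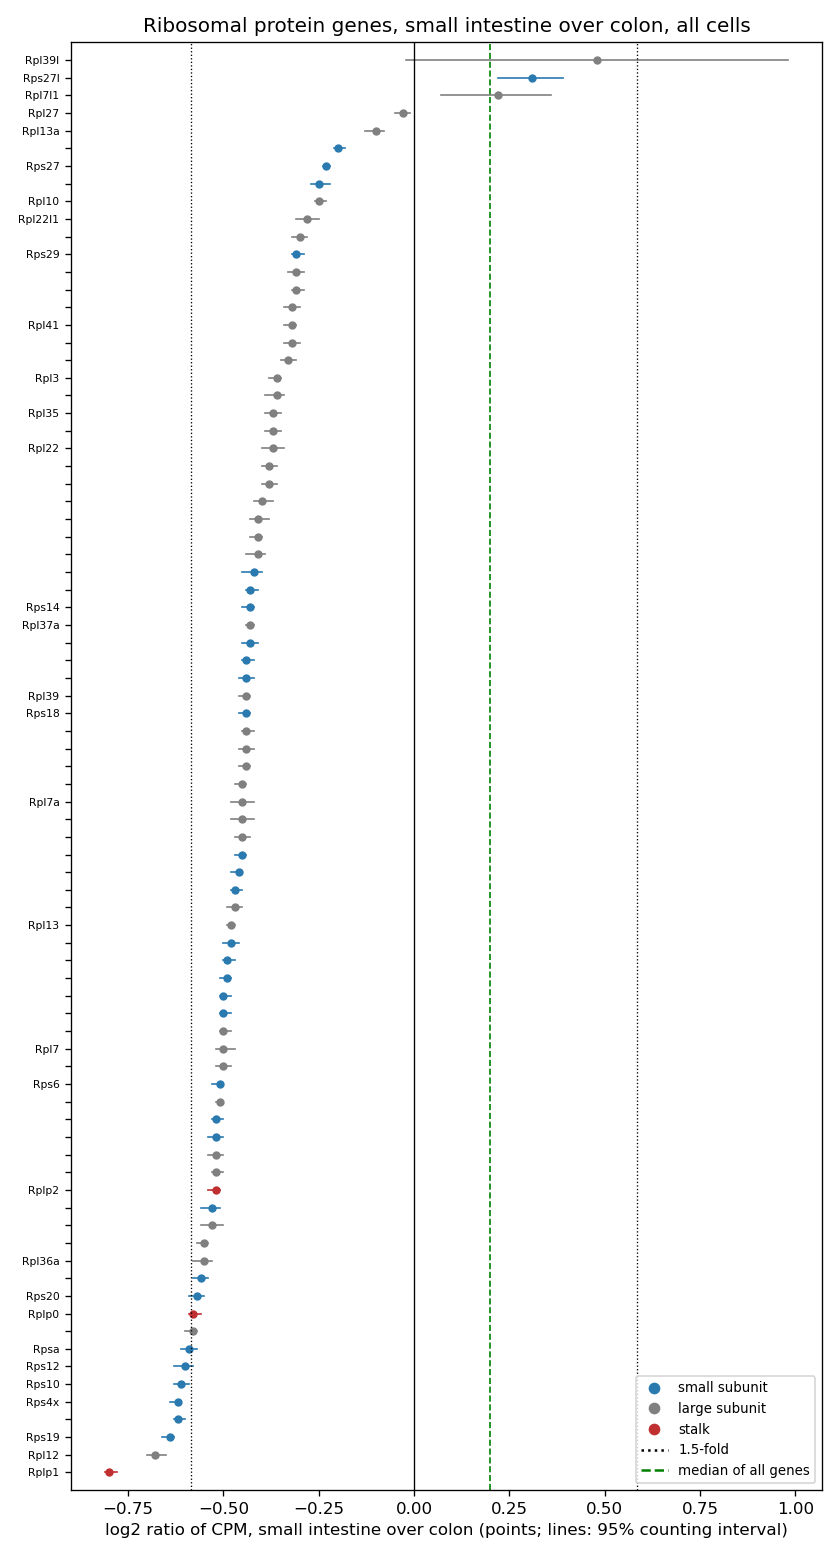
The log2 ratio of CPM, small intestine over colon (horizontal axis), of the 81 ribosomal protein genes with at least 20 UMIs, with 95% counting intervals as lines and colours for small subunit (blue), large subunit (grey) and stalk (red). All but 3 points lie left of 0, most between -0.52 and -0.37, and the dashed line is the median of all genes at 0.20; only genes named in the text are labelled.

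Within marker groups the same direction was found. The median member ratio of small intestine over colon was -0.43 in Ncr1+ cells, -0.41 in Ccr6+, -0.29 in Klrd1+, -0.28 in Gata3+ and -0.24 in Cd3e+ cells, beside medians over all genes of 0.15 to 0.21. At least 1.5-fold higher in the colon were 5 members in Ccr6+ cells (8.23% of genes), 1 in Ncr1+ cells (8.35%), 1 in Cd3e+ cells (9.73%), 0 in Gata3+ cells (8.63%) and 0 in Klrd1+ cells (10.5%). On the small intestine side 1 member each was past 1.5-fold in Ccr6+ cells (21.9% of genes), Ncr1+ cells (22.8%) and Klrd1+ cells (21.1%), and 0 in Gata3+ (18.0%) and Cd3e+ cells (16.5%). The members were Rpl39l in Ccr6+ cells and Rpl7l1 in the other two. Rplp1 kept a colon excess within Gata3+ cells (5856 against 8158 CPM, log2 ratio -0.48), where it was again the lowest member. Rpl27 was above 0 within Gata3+ (0.12), Klrd1+ (0.16) and Cd3e+ cells (0.20), and Rpl13a within Gata3+ (0.06), Klrd1+ (0.27) and Cd3e+ cells (0.17).

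Within each library, members were then compared between marker-positive and other cells. In the small intestine Gata3+ cells, 78 of the 80 members with at least 20 UMIs in those cells were above the other cells, with a median log2 ratio of 0.39. Of 81 members tested, 4 were at least 1.5-fold higher (Rplp1, Rpl36a, Rps20 and Rps6), beside 5.54% of genes, and 1 was at least 1.5-fold lower (Rpl39l, 15 UMIs in Gata3+ cells), beside 12.5%. In the colon Gata3+ cells 77 of 81 were above, with a median of 0.20, and 1 member was past 1.5-fold in each direction, Rplp1 higher (6.91% of genes) and Rpl39l lower (12.5%). Of the 80 members measured in both, 77 were above the other cells in both libraries and 2 below in both. The Spearman correlation between the libraries over these 80 genes was 0.83, which describes genes of 1 family and not replicates.

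Rplp1 led in both libraries. In small intestine Gata3+ cells it was at 5856 CPM against 3149 in other cells (log2 ratio 0.90, 0.87 to 0.92), and in colon Gata3+ cells at 8158 against 5364 (0.61, 0.59 to 0.62). In Ncr1+ cells it was the lowest member of both libraries, at 3035 against 4529 CPM (-0.58) in the small intestine and 4381 against 7352 (-0.75) in the colon. Ccr6+ cells had 2954 against 4171 CPM (-0.50) and 4591 against 7249 (-0.66). In these 3 groups Rplp1 had the sign of the family median and a larger ratio. In small intestine Klrd1+ cells it was below 0 (-0.28) while the family median was 0.04. The second highest in Gata3+ cells were Rpl36a in the small intestine (1797 against 1115 CPM, 0.69) and Rps20 in the colon (2692 against 2109 CPM, 0.35). Among 251 stretches of 50 bases at the 3′ end of Rpl36a, 100% also occur in a transcript of another annotated gene. Its counts thus depend on how the counting handled shared reads. This limit holds for many members: 40 of the 82 had more than 50% of such stretches shared, and 10 had none shared. Rplp1 had 66.9% shared, Rps12 86.3% and Rpl10 90.4%.

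Rps27l went the other way. Among members with at least 20 UMIs in the cells, it was the lowest in small intestine Gata3+ cells (121 against 141 CPM, -0.21) and the second lowest in colon Gata3+ cells (96.3 against 127 CPM, -0.40), below only Rpl39l (2.44 against 4.42 CPM, -0.86). In Ccr6+ cells it was among the 2 highest members of each library, at 173 against 130 CPM (0.41) in the small intestine and 162 against 104 (0.64) in the colon. In colon Ncr1+ cells it was the highest member (135 against 105 CPM, 0.36) and the 1 member of 80 above 0. Colon Klrd1+ cells likewise had it highest, at 153 against 105 CPM (0.55).

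In Ncr1+ cells 78 of 80 members were below the other cells of the small intestine (median -0.29), and 79 of 80 in the colon (median -0.26). None was at least 1.5-fold higher, beside 7.05 and 11.8% of genes. At least 1.5-fold lower was 1 member of each library, Rpl39l in the small intestine (8 UMIs in Ncr1+ cells) and Rplp1 in the colon, beside 9.87 and 13.2%. In the colon Rpl22l1 was the second lowest (854 against 1253 CPM, -0.55), and Rpl10, a protein joined to the large subunit late in its assembly, was next to the highest (3948 against 3962 CPM, -0.01), while in the small intestine it was at 2667 against 3645 CPM (-0.45). In small intestine Ncr1+ cells the second lowest was Rpl36a (1024 against 1491 CPM, -0.54), and Rpl7l1 was the highest (log2 ratio 0.20, interval -0.03 to 0.44).

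In Ccr6+ cells 75 of 81 members were below the other small intestine cells and 76 of 80 below the other colon cells, with medians of -0.18 and -0.21. Rpl12 was the lowest in the small intestine (779 against 1158 CPM, -0.57) and the second lowest in the colon (1268 against 1835, -0.53). Rpl10, named after its values were seen, was above the other cells in both libraries, at 4213 against 3248 CPM (0.38) and 4626 against 3908 CPM (0.24). At least 1.5-fold higher was 1 member in the small intestine (14.8% of genes) and 2 in the colon (17.5%), and 0 and 1 were at least 1.5-fold lower (13.4 and 14.8%). The members higher in the colon Ccr6+ cells were Rpl39l and Rps27l, and the lower one was Rplp1. The 1 in the small intestine was Rpl39l, at 15.8 CPM (22 UMIs) against 3.36 (log2 ratio 2.23). In the colon Rpl39l was at 9.80 CPM (16 UMIs) against 2.71 (1.86), with fewer than 20 UMIs in the positive cells.

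**Figure D4:**
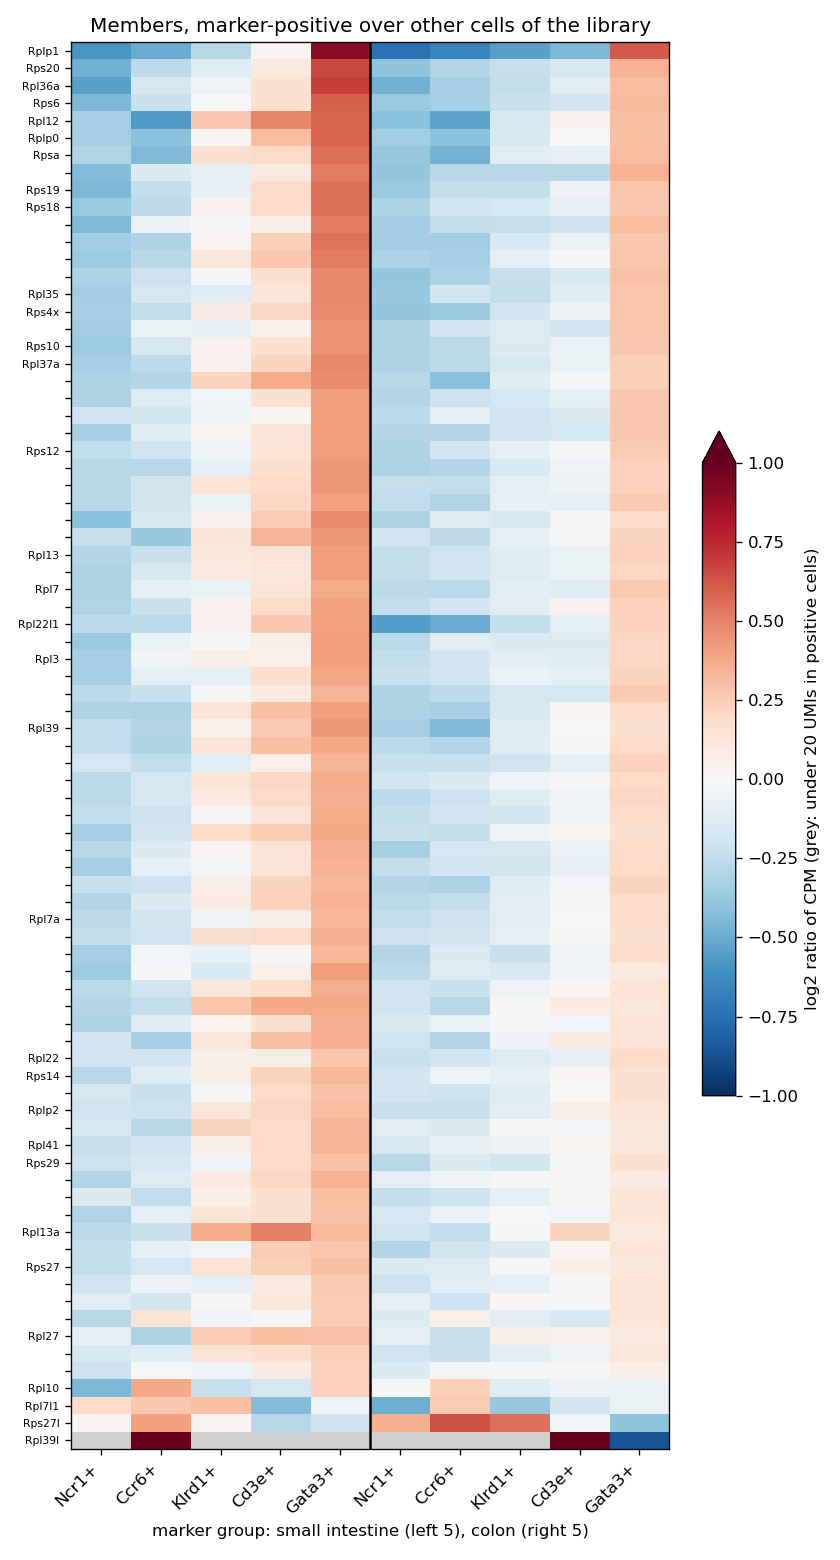
The log2 ratio of CPM in marker-positive over the other cells of the same library, for 81 members (rows, ordered by their mean ratio in Gata3+ cells) and 5 groups in each library (columns); red is higher in positive cells, blue lower, the scale ends at 1 and -1 (Rpl39l exceeds it at 2.23 and 1.10), and grey marks under 20 UMIs in positive cells; only genes named in the text are labelled. Rplp1 at the top goes from 0.90 in small intestine Gata3+ cells to -0.75 in colon Ncr1+ cells, and Rps27l near the bottom has the opposite pattern.

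Cd3e+ cells of the small intestine had 76 of 80 members above the other cells (median 0.17), with 0 at least 1.5-fold higher (9.25% of genes) and 1 lower (21.0%). The 1 lower was Rpl39l, with 1 UMI in these cells, while the ranks given here are among members with at least 20. The 2 highest were Rpl13a (1644 against 1163 CPM, 0.50) and Rpl12 (1532 against 1088 CPM, 0.49), and the 2 lowest Rpl7l1 (34.4 against 46.3 CPM, -0.43) and Rps27l (112 against 136 CPM, -0.28). In the colon 56 of 81 were below, with a median of -0.05, 1 at least 1.5-fold higher (8.63% of genes) and 0 lower (12.2%), and Rplp1 was the lowest (5454 against 7428 CPM, -0.45). Rpl13a was again among the 2 highest (1457 against 1249 CPM, 0.22), after Rpl39l (5.69 against 2.65 CPM, 24 UMIs, 1.10). In small intestine Klrd1+ cells 48 of 80 members were above the other cells (median 0.04), 0 at least 1.5-fold higher (13.5% of genes) and 1 lower (24.4%). The 1 lower was again Rpl39l, with 1 UMI in these cells. Among the 80 members Rpl13a was the highest (1535 against 1189 CPM, 0.37) and then Rpl7l1 (55.4 against 45.1, 0.30). The lowest of the 80 there were Rplp1 (3357 against 4081 CPM, -0.28) and Rpl10 (2861 against 3353, -0.23). In colon Klrd1+ cells 73 of 80 were below (median -0.12), with 0 past 1.5-fold in either direction (11.3% of genes higher, 17.1% lower). They went from Rplp1 (4963 against 7213 CPM, -0.54) and Rpl7l1 (30.6 against 39.7, -0.38) up to Rpl27 (1838 against 1762, 0.06) and Rps27l.

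The last comparison concerns the paralog pairs, where the share of the second gene in the UMIs of the pair does not depend on how a library is scaled. The coding sequences of Rps27 and Rps27l, from the GENCODE vM21 transcripts, are shown to mark where they differ. The counts came from 3′ tags, so differences in coding sequence alone do not set how well they were told apart. Of the 3′ stretches described above, 58.5% for Rps27 and 13.3% for Rps27l also occur in a transcript of another annotated gene. The effect of this on their counts was not tested. Both coding sequences have 255 bases, and the 61 bases that differ are in capitals.
Rps27: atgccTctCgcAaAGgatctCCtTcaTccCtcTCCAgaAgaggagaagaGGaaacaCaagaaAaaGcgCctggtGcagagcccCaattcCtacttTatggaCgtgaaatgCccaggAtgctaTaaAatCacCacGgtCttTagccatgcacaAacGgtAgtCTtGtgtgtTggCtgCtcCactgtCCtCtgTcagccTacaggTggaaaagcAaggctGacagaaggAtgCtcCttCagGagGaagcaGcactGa
Rps27l: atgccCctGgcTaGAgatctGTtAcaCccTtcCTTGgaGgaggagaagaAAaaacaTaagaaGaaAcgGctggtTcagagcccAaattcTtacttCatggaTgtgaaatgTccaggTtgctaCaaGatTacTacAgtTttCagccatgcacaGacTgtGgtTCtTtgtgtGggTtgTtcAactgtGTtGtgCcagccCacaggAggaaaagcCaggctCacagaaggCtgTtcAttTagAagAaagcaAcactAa
Of these differences 53 fall on the third base of a codon, 4 on the first and 4 on the second, and the pair is 76.1% identical. Rps27l (chromosome 9, 66946086 to 66949516, plus strand) is known as a target of p53.

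Rps27l gave 1.69% of the UMIs of the pair in the small intestine (2023 of its UMIs, interval 1.62 to 1.76%) and 1.17% in the colon (2419 UMIs, 1.13 to 1.22%). The log2 ratio of the shares was 0.53 (0.44 to 0.61). In both libraries the share was highest in Ccr6+ cells, 2.41% (2.12 to 2.73%) and 1.90% (1.68 to 2.14%). It was lowest in Cd3e+ cells of the small intestine (1.22%, 1.02 to 1.44%) and in Gata3+ cells of the colon (1.01%, 0.961 to 1.07%). Ncr1+ cells had 1.92 and 1.58%, and small intestine Gata3+ cells 1.34%. Within groups the ratio of the tissues was 0.40 in Gata3+, 0.34 in Ccr6+ and 0.28 in Ncr1+ cells, with intervals above 0. It was 0.13 in Cd3e+ cells (-0.15 to 0.41) and -0.09 in Klrd1+ cells (-0.49 to 0.30), where the intervals include 0.

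A further gene, Rps27rt, has a coding sequence of 255 bases with 0 differences from Rps27, so their UMIs cannot be told apart by coding sequence. It was listed at 437 CPM in the small intestine against 321 in colon cells. Added to Rps27, it left the log2 ratio of the Rps27l share at 0.50, an alternative chosen after the data had been seen.

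Rpl22 and Rpl22l1 had near equal UMIs. Of their 3′ stretches of 50 bases, 11.9% for Rpl22 and 61.2% for Rpl22l1 also occur in a transcript of another gene. The effect of this on their counts was not tested, so near equal UMIs need not mean equal levels. Rpl22l1, whose coding sequence is 66.9% identical to that of Rpl22, gave 49.1% of the pair in the small intestine (48.6 to 49.7%) and 47.6% in the colon (47.2 to 48.0%), a log2 ratio of 0.04 (0.02 to 0.06). Small intestine groups lay between 47.8% in Ccr6+ and 52.4% in Cd3e+ cells. Colon groups lay between 42.3% in Ncr1+ cells (40.9 to 43.8%) and 47.8% in Gata3+ cells (47.3 to 48.3%), with 42.6% in Ccr6+ cells (40.9 to 44.3%). The colon Ncr1+ and Ccr6+ cells thus held less Rpl22l1 per Rpl22 than the other colon groups, and the tissue ratio was 0.19 (0.13 to 0.25) and 0.17 (0.08 to 0.25) in these cells.

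Rpl39l is known as a testis-rich copy of Rpl39, a small protein of the tunnel through which the new chain leaves. Their coding sequences of 156 bases differ at 23 bases (85.3% identical), in capitals.
Rpl39: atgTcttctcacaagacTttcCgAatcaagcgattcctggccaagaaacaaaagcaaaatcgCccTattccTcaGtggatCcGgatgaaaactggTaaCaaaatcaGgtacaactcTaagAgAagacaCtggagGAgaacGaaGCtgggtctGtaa
Rpl39l: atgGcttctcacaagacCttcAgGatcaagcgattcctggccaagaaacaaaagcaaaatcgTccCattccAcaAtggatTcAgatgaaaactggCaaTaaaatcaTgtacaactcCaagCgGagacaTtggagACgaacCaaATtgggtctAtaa
Rpl39l gave 0.144% of the pair in the small intestine (0.112 to 0.183%) and 0.0759% in the colon (0.0594 to 0.0956%), a log2 ratio of 0.93 (0.45 to 1.40). In Ccr6+ cells the share was 0.605% (22 UMIs, 0.380 to 0.915%) in the small intestine and 0.305% (16 UMIs, 0.175 to 0.495%) in the colon. All other groups of both libraries lay between 0.0233 and 0.134%. The intervals of the Ccr6+ cells were above those of every other small intestine group and above those of the Ncr1+ and Gata3+ cells of the colon, and overlapped those of the colon Klrd1+ and Cd3e+ cells.

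Rpl7l1 shares 53.0% of its coding bases with Rpl7 and is known from an early nucleolar particle of the large subunit rather than the finished ribosome. Shared with another gene were 78.0% of the 3′ stretches of Rpl7 and 6.64% of those of Rpl7l1. In CPM the log2 ratio of small intestine over colon was -0.50 for Rpl7 and 0.22 for Rpl7l1. Rpl7l1 gave 2.90% of the pair in the small intestine (2.69 to 3.12%) and 1.79% in the colon (1.68 to 1.91%). The log2 ratio of these shares was 0.70 (0.55 to 0.84). The ratio was 1.25 in Ncr1+ cells (3.70 against 1.56%) and 1.28 in Klrd1+ cells (3.67 against 1.51%, 26 and 48 UMIs), and lay between 0.23 and 0.57 in the other groups. Rpl36al, which falls outside the naming rule, gave 26.3% of its pair with Rpl36a in the small intestine (25.7 to 26.8%) and 19.5% in the colon (19.2 to 19.9%). Its own level was 479 and 478 CPM (log2 ratio 0.00), while Rpl36a was at 1344 and 1970 CPM (-0.55). It was highest in Ccr6+ cells (31.8 and 27.8%) and lowest in Gata3+ cells (22.4 and 18.2%) of both libraries. Rpl3l, a copy of Rpl3 known from muscle, had 1 UMI in the small intestine, against 41459 of Rpl3. It had 0 in the colon, with an interval of 0 to 0.00467% of the pair (the floor of 3 counts is 0.00380%). Rpl10l and Rps4l were not analysed here.

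**Figure D5:**
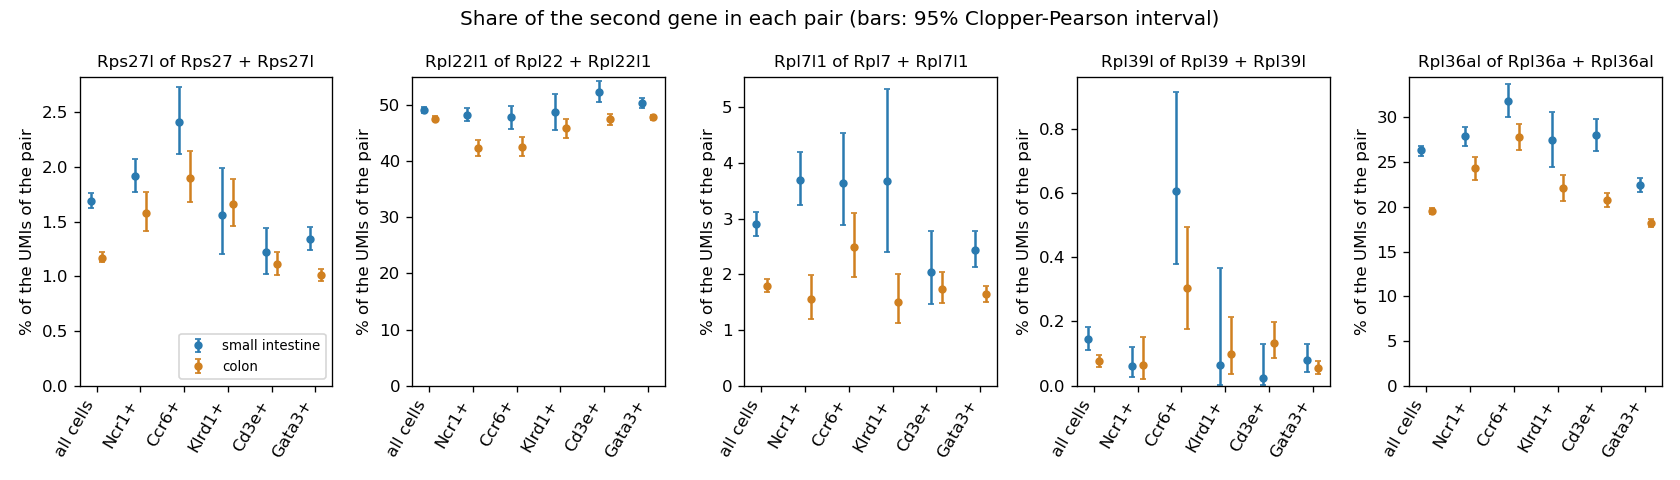
The second gene of each pair as a percent of the UMIs of the pair (vertical axis, separate scale in each panel), in all cells and in 5 marker groups of the small intestine (blue) and colon (orange), with 95% Clopper-Pearson intervals. The Rps27l, Rpl39l and Rpl36al shares are highest in Ccr6+ cells of both libraries, and Rpl22l1 stays near 50% with lower values in colon Ncr1+ and Ccr6+ cells.

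Other genes of translation were given by fixed lists, for small intestine over colon in all cells. Among genes that share the cytosolic ribosome but not the naming rule, Fau, which encodes small subunit protein eS30, was at 3345 and 4599 CPM (log2 ratio -0.46), and Rack1, a scaffold on the small subunit, at 815 and 1176 (-0.53). Of 11 genes in the elongation list, not all of them elongation factors, 8 were lower in the small intestine (median -0.31). Among the 8 were the factors Eef1a1 at 5574 and 6898 CPM (-0.31) and Eef2 at 1705 and 2273 (-0.41). Tpt1, which is in the list but is not an elongation factor, was at 2838 and 3610 (-0.35). Eef1g was the 1 gene of the list past 1.5-fold in the colon (654 and 1019 CPM, -0.64). In the other direction Eef2k, the kinase that inhibits Eef2, was at 154 and 28.5 CPM (2.44), and Eef1akmt1, which methylates Eef1a1, at 30.2 and 15.2 CPM (0.99).

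Of the initiation factors 16 of 34 were above 0, with a median of -0.05, below the 0.20 of all genes, and none was past 1.5-fold in either direction (20.8% of all genes higher in the small intestine, 9.25% in the colon). Eif1 was at 3791 and 3680 CPM (0.04), Pabpc1 at 917 and 981 (-0.10) and Eif4a1 at 844 and 598 (0.50). Ribosome biogenesis genes had a median of -0.03 over 41 genes, with 1 past 1.5-fold in each direction, Polr1b higher in the small intestine (0.62) and Rrs1 in the colon (-0.67). Mitochondrial ribosomal protein genes, which make a separate ribosome, had a median of 0.15, near the median of all genes at 0.20. Of these 78 genes 55 were above 0, beside 8154 of 11927 genes. Past 1.5-fold on the small intestine side were 4 (Mrpl34, Mrps5, Mrpl3 and Mrpl22), a smaller part than the 20.8% of all genes. All of these list medians were below the median of all genes, and the differences between lists were not tested.

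In a list of 14 genes of mTOR signalling and Myc, the median was -0.11, 4 were at least 1.5-fold higher in the colon (9.25% of all genes) and none in the small intestine (20.8%). These were Ddit4, an inhibitor of mTOR complex 1 (27.1 and 73.0 CPM, -1.43), Myc, a transcription factor that drives ribosome production (15.3 and 31.4 CPM, -1.04), Mycn (6.56 and 11.7 CPM, -0.84) and Mlst8 (3.05 and 4.79 CPM, -0.65). Rheb, the activator of mTOR complex 1, was at 201 and 191 CPM (0.08). Trp53, which encodes p53, was at 133 and 85.3 CPM (0.64), and its targets Cdkn1a and Mdm2 at log2 ratios of -0.34 and 0.65. A list of 16 genes of RNA quality and stress had a median of 0.12, near the 0.20 of all genes. At least 1.5-fold higher were 5 in the small intestine (20.8% of all genes) and 3 in the colon (9.25%). Of these, Jun was at 2089 and 866 CPM (1.27), Junb at 10027 and 6350 (0.66) and Hspa1a at 132 and 243 (-0.88). Such genes can respond to cell isolation. The part of these genes in the member shares was not tested.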

How the data were processed

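The authors deposited raw UMI counts, as a table of 17238 genes in chosen cells and as a matrix of 31053 genes and 737280 barcodes per library, made with Cell Ranger 3.0.2 on mm10 per the submitters' processing notes. How cells and genes were chosen is not given in the sources used here. The table held the same counts as the matrices (0 values differed). CPM, shares of UMIs, log2 ratios and pair shares were computed from these counts with Python 3.11.15, numpy 2.4.6, scipy 1.17.1 and pandas 2.3.3, and figures were drawn with matplotlib 3.10.9.

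Each tissue had 1 library, so there was no test. Intervals are 95% (exact Poisson for levels, Clopper-Pearson for shares, exact conditional binomial for ratios of levels, the delta method for ratios of pair shares) and cover counting error only. A gene was compared where it had at least 20 UMIs over the cells compared, and 1.5-fold was the size limit. The floor for a count of 0 was 3 counts. The members and lists were chosen with earlier results of these data known. Named members were the 10 with the most UMIs, the 5 highest and the 5 lowest tissue ratios, the paralog pairs, the 2 highest and 2 lowest in each marker group with at least 20 UMIs in its cells, and those under 20 UMIs. Other genes came from the lists, as the 3 with the most UMIs or those past 1.5-fold. Genes named outside this rule, after their values were seen, include Rps6, Rps10, Rps12, Rpsa, Rplp0, Rplp2, Rheb and Cdkn1a, Rpl10 in some groups, and Rpl7a and Rpl35 for their promoter starts. Some genes that the rule names are not reported here.

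The automatic threshold of Scrublet in scanpy 1.11.5 marked 0 small intestine and 1 colon cell (0.0132%), so it did not work here, and all cells were kept. As an alternative the 241 and 456 cells with the highest doublet scores were left out. The other alternatives were cells called from the matrices, thinning to 1000 UMIs, subtraction of free RNA, other marker definitions, scalings and size limits. Promoter starts came from RefSeq on GRCm38.p6, and coding sequences and gene positions from GENCODE vM21. The scripts were tested on simulated data.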

Additional observations from a re-analysis of the deposited data

Results flagged for a closer look

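Barcodes with 10 to 50 UMIs, which lie outside the cells of the comparisons and served to estimate free RNA, held ribosomal protein UMIs at 22.7% of all UMIs in the small intestine (44339 barcodes) and 31.9% in the colon (62738 barcodes).

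In some marker groups a pair share went the opposite way from the other groups between the tissues, and these differences between groups were not tested. The Rps27l share had a log2 ratio of small intestine over colon of -0.09 in Klrd1+ cells, against 0.13 to 0.40 in the other 4 groups. The Rpl39l share had -0.09 in Ncr1+ cells (8 and 5 UMIs), -0.57 in Klrd1+ cells (1 and 6 UMIs) and -2.52 in Cd3e+ cells (1 and 24 UMIs), against 0.51 in Gata3+ and 0.99 in Ccr6+ cells. All 4 opposite values had intervals that include 0.

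Copies of ribosomal protein genes outside the naming rule held UMIs as well: 13770 for Rps27rt, 4306 for Rpl27-ps3 and 3409 for Rpl10-ps3 over both libraries. Rps27rt had a log2 ratio of small intestine over colon of 0.45, Rpl10-ps3 of 0.31 and Rpl27-ps3 of -0.69.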

How the results depend on the processing

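The log2 ratio of the member share between the tissues (-0.45) stayed below 0 under each alternative run. It was -0.45 with cells called from the matrices, without mitochondrial UMIs or without the member with the most UMIs, -0.46 after thinning to 1000 UMIs or as a mean over cells, and -0.44 with free RNA subtracted. Among alternatives chosen after seeing the data it was -0.25 with small intestine cells weighted to the colon marker patterns, -0.52 in cells of 2000 to 3000 UMIs and -0.47 without Cd3e+ cells. The distance between the highest and lowest marker groups (6.93 percentage points for small intestine cells and 6.00 for colon cells) was 7.35 and 7.07 without the top doublet scores, 7.53 and 8.17 after thinning, 7.32 and 6.54 with free RNA subtracted, and 11.1 and 7.40 at 2 or more marker UMIs. It was 9.96 and 8.82 in cells positive for exactly 1 marker, 7.10 and 6.26 without mitochondrial UMIs, 6.25 and 6.97 as means over cells, and 5.22 and 8.75 in cells of 2000 to 3000 UMIs. Members at least 1.5-fold higher in the colon (8) numbered 13 after thinning, 45 scaled to other UMIs, 57 with a median-ratio size factor, 72 at 1.2-fold, 0 at 2-fold and 13 without Cd3e+ cells. Those higher in the small intestine (0) numbered 1 after thinning, 1 with no UMI minimum, 2 at 1.2-fold and 1 without Cd3e+ cells. The member median (-0.44) was -0.46, -0.59, -0.65 and -0.47 after thinning, the 2 scalings and without Cd3e+ cells. The Rps27l ratio (0.53) was 0.72 after thinning, 0.34 in Ccr6+, 0.28 in Ncr1+, 0.40 in Gata3+, 0.13 in Cd3e+ and -0.09 in Klrd1+ cells. The Rpl22l1 ratio (0.04) was -0.0018 after thinning, so its direction turned, and 0.17, 0.19, 0.08, 0.09 and 0.14 in Ccr6+, Ncr1+, Gata3+, Klrd1+ and Cd3e+ cells. The cause was not tested. No paired analysis was possible because each tissue has 1 library. Depth limits Rpl3l, with 1 UMI in all, and Rpl39l and Rpl7l1, with as few as 1 and 26 UMIs in a group.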
